A study of Mus musculus with 2 samples.

Results

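Mir143 and Mir145a are the 2 miRNA genes of the miR-143/145 cluster, taken here by their gene IDs in the GENCODE M21 annotation out of 2202 measured miRNA genes. Small RNA was sequenced from the hearts of female B6CASTF1/J mice, an F1 cross of C57BL/6 and CAST strains, aged 36 days. There is 1 group with 2 biological replicates, each of 1 library, and neither a treatment nor a control. Each heart has its own biosample record, and both records carry 1 shared donor code. The values describe the level of the cluster in this tissue and its spread over both hearts. They come from heart tissue with all its cell types, so fewer cells of a type and less RNA per cell cannot be told apart.

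Mature miRNAs are cut from folded precursors, pair through a short seed with messenger RNAs and lower the output of these. In mouse, miR-143 and miR-145 come from 1 primary transcript that is switched on by serum response factor (SRF) and its partner myocardin. They are known as the most typical miRNAs of contractile smooth muscle, and other mesenchymal cells such as pericytes and fibroblasts carry them as well. Known targets are the transcription factors Klf4 and Klf5 for miR-145 and Elk1 for miR-143, which favour a growing, less contractile cell.

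Both genes lie on chromosome 18 of mm10, on the minus strand. Mir143 (ENSMUSG00000065445.3) spans 61649196 to 61649258 and Mir145a (ENSMUSG00000065592.2) spans 61647825 to 61647894, so that Mir143 is transcribed first. A gap of 1301 bases separates them, with 0 other miRNA genes inside it. In GENCODE M21 no exon of another gene overlaps either hairpin. The long noncoding RNA gene Carmn, which is the known host of the cluster, ends 366 bases before Mir143 in that annotation (61649625 to 61665537). In RefSeq, on GRCm38.p6, Carmn extends from 61645878 to 61665538 and covers both hairpins. Bvht, a long noncoding RNA known in mouse from the commitment of embryonic stem cells to cardiovascular lineages, lies on the other strand and stops 352 bases short of Mir145a.

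**Figure D1:**
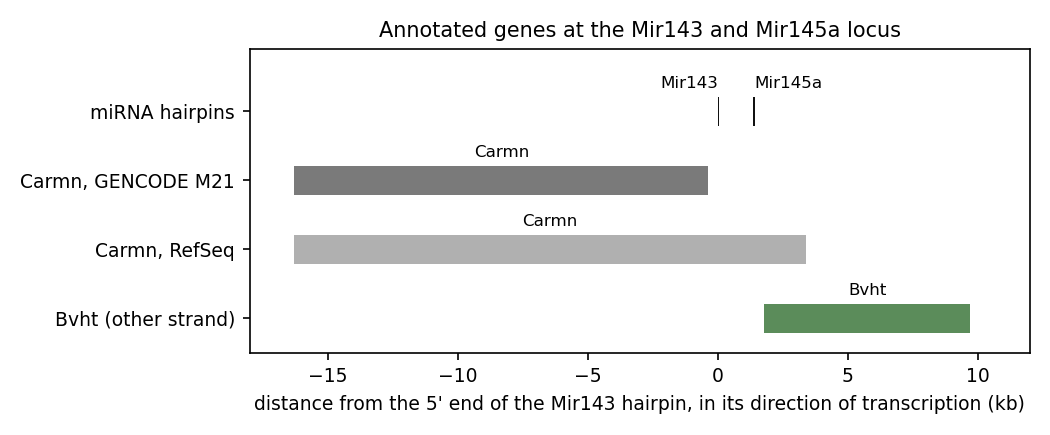
Genes annotated around the cluster, drawn to scale by their distance in kb from the 5' end of the Mir143 hairpin. The hairpins are 1301 bases apart, outside the GENCODE M21 extent of Carmn and inside its RefSeq extent.

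The 2 hairpins are short and unlike each other. The Mir143 hairpin has 63 nt and 55.6% G and C, and the Mir145a hairpin 70 nt and 48.6%, beside medians of 83 nt and 51.4% over 335 detected miRNA genes. A gene was called detected where each library gave at least 2 CPM, the sense-strand count per 1000000 sense-strand counts over gene rows. Folded by RNAfold, the Mir143 hairpin reached a minimum free energy of -0.586 kcal/mol per nt and the Mir145a hairpin -0.433, against a median of -0.436. Of the 335 detected hairpins, 23 had a lower energy per nt than Mir143 and 177 a lower one than Mir145a. The longest run of bases shared by the 2 members was 5 nt.

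Sequence copies limit what a gene count can show, because the deposited tables hold reads that map to several places in a separate row, outside the gene rows. Neither member shared a run of 18 nt with another annotated hairpin, whereas 87 of the 335 detected hairpins did. The closest relative of Mir145a was Mir145b, 7373 kb away on the same strand, which shares a run of 17 nt with it. Mir145b had 1 count in replicate 2 and 0 in replicate 1, where the exact Poisson interval of a count of 0 reaches 3.69 counts, or 1.78 CPM. By the simpler limit of 3 counts it would be 1.45 CPM. All reads of both members lay on the strand of the gene, with 0 reads on the opposite strand in either library.

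By counts in gene rows, Mir143 was among the most abundant miRNA genes of the heart. It had 74824 counts in replicate 2 (95% exact Poisson interval 74289 to 75362) and 87125 in replicate 1 (86547 to 87706). These were 42366 CPM in replicate 2 against 41989 CPM in replicate 1. Mir143 thus held 4.24% of all counts assigned to miRNA genes in replicate 2 and 4.20% in replicate 1, and stood at rank 9 of 2202 in each library. Its mean of 42177 ± 267 CPM (SD, n = 2) placed it at rank 10. Reads that map to several places are outside these counts, so miRNAs with several gene copies can be ranked too low beside it.

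Mir145a had far fewer counts and differed more between the hearts. It had 3295 counts in replicate 2 (3183 to 3409) and 2343 in replicate 1 (2249 to 2440), or 1866 CPM in replicate 2 against 1129 CPM in replicate 1. Its rank was 45 in replicate 2 and 63 in replicate 1, and its mean of 1497 ± 521 CPM (SD, n = 2) stood at rank 57. Together the 2 genes reached 44232 CPM in replicate 2 against 43118 CPM in replicate 1. The sum followed Mir143, since Mir145a made up 4.22% of the cluster's counts in replicate 2 (95% exact binomial interval 4.08 to 4.36) and 2.62% in replicate 1 (2.52 to 2.73).

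In the order of mean CPM, the gene just above Mir143 was Mirlet7d with 45297 ± 8135 CPM (SD, n = 2), whose 39545 CPM in replicate 2 against 51050 CPM in replicate 1 enclosed both values of Mir143. Mir23a, next above, reached 49679 ± 2714 CPM, and its range lay above that of Mir143. Below it stood Mir139 with 30472 ± 13267 CPM, whose highest value, 39853 CPM in replicate 2, lay under the lowest of Mir143. The genes beside Mir145a were Mir221 with 1499 ± 684 CPM above it and Mir150 with 1463 ± 696 CPM below it. All 3 genes above it and all 3 below it, from Mir361 (1562 ± 3.11 CPM) to Mir214 (1346 ± 593 CPM), had ranges that overlapped its own, so its place in the order is not resolved by 2 hearts.

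**Figure D2:**
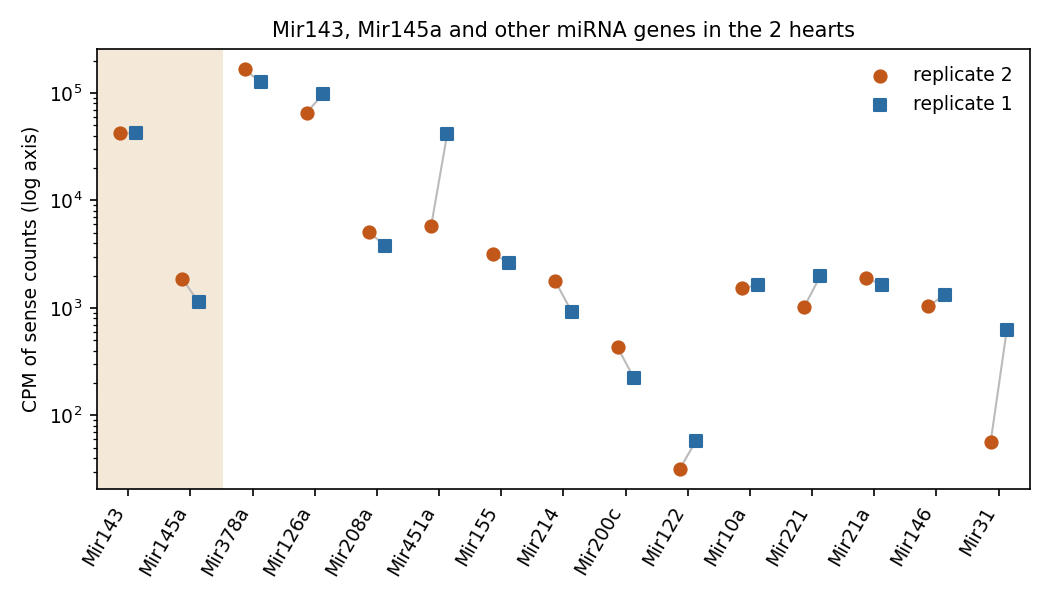
CPM of sense counts on a log axis in replicate 2 (circles) and replicate 1 (squares), with a line joining the values of a gene. Mir143 stood at 42366 CPM in replicate 2 and at 41989 CPM in replicate 1, and Mir145a at 1866 CPM and 1129 CPM, beside Mir378a, which neighbours the cluster, the highest gene of each marker list with a detected member, and the 5 most abundant genes of the lists for smooth muscle differentiation and growth.

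The 2 genes of the cluster differed in counts by more than an order of magnitude in each heart. Mir143 had 22.7 counts per count of Mir145a in replicate 2 (95% exact binomial interval 21.9 to 23.5) and 37.2 in replicate 1 (35.7 to 38.8). The mean log2 ratio was 4.86 ± 0.50 (SD, n = 2), a 29.1-fold excess of Mir143 reads. Counts here are reads of the short product and are not divided by length. Divided by the length of the annotated hairpin, the excess was 32.3-fold. The library size cancels in this ratio, so no scaling between libraries can change it. Whether both products entered the libraries equally well was not tested, so it is a ratio of reads and not of molecules.

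The ratio of Mir143 to Mir145a was 1.64 times lower in replicate 2 than in replicate 1 (95% Wald interval 1.55 to 1.73; two-sided Fisher's exact test, p = 3.96e-73). This test compares the reads of 2 libraries and has no replicate of either heart. The libraries carry no stated molecular identifiers, so PCR copies of 1 molecule count as separate reads and all intervals here cover counting error only. On the log2 scale the ratio was 4.51 in replicate 2 and 5.22 in replicate 1.

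Each member was also compared between the hearts on its own, by asking with a two-sided exact binomial test whether its reads divided between the libraries as the library sizes did. Sizes were scaled by edgeR's TMM method, and p-values were adjusted after Benjamini and Hochberg over 359 genes with 10 or more counts. Mir145a was 1.47-fold higher in replicate 2 (95% interval 1.39 to 1.55; log2 ratio 0.55, adjusted p = 1.10e-45). Mir143 was lower in replicate 2, by a log2 ratio of -0.16, or 1.11-fold (adjusted p = 3.66e-104). Both members passed the threshold of 0.05, but so did 44.3% of all tested genes, so passing it says little about the cluster. Of all tested genes, 20.1% were called higher in replicate 2 and 24.2% higher in replicate 1.

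The direction of Mir143 rests on the scaling. With library size alone its log2 ratio was 0.01 with an adjusted p of 0.138, and with DESeq2 size factors it was -0.22 (adjusted p = 4.38e-204). Relative to library size alone, TMM moved every log2 ratio by -0.17 and DESeq2 size factors by -0.23. Mir145a was higher in replicate 2 under each of these scalings, with a log2 ratio of 0.72 when library size alone was used and of 0.49 on DESeq2 size factors. The share of all tested genes that passed was 47.4% with library size alone, 28.7% higher in replicate 2 and 18.7% lower. It was 43.5% with DESeq2 size factors, 16.7% higher and 26.7% lower.

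Both differences were set beside those of other abundant genes. Among the 70 genes that averaged at least 1000 CPM, the median size of the log2 ratio was 0.29, on TMM scaling. The SD of the signed log2 ratios was 0.68. Of these genes, 49 differed more between the hearts than Mir143, and 23 differed more than Mir145a. By sign, 6 of the 70 had a higher log2 ratio than Mir145a. In CPM, the SD of Mir143 was, at 0.632% of its mean, the third smallest of the 70. On TMM scaling it was 7.67% and stood at place 21, so the near equality of its CPM values is not kept under that scaling.

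**Figure D3:**
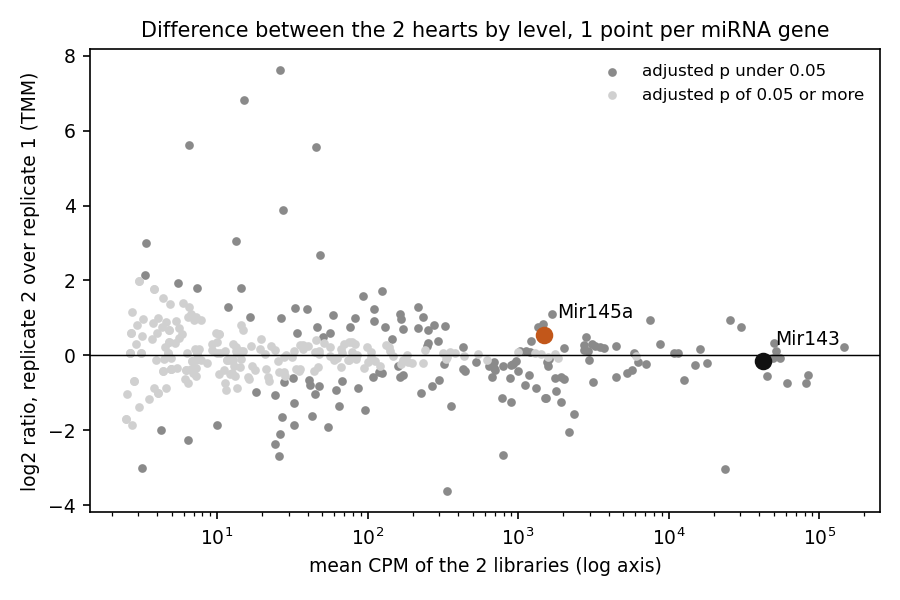
Log2 ratio of replicate 2 over replicate 1 on TMM scaling against mean CPM for the 359 tested genes, dark where the adjusted p was under 0.05. Mir143 lies at -0.16 and Mir145a at 0.55, both inside the spread of genes of like level.

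Other miRNA genes that lie side by side gave a scale for the ratio within the cluster. There were 74 pairs of consecutive genes on 1 strand within 10 kb of each other, with at least 10 CPM on average in each gene. By the size of the mean log2 ratio within the pair, Mir143 and Mir145a stood at place 10 of 74, with 4.86 against a median of 2.22. Wider pairs included Mir23a and Mir27a (5.37), which are 79 bases apart, and Mir30d and Mir30b (5.67). These pairs, and those named next, were chosen after their values were seen. Among the 14 pairs with 1000 or more counts of each gene in each library, Mir143 and Mir145a stood at place 3. Reads of hairpins with shared runs can fall outside the gene rows and so alter the ratio of a pair. Among 44 pairs of genes without a run of 18 nt shared with another hairpin, Mir143 and Mir145a stood at place 5.

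By the change of the ratio between the hearts, the cluster stood at place 20 of 74, with a log2 change of -0.71 against a median size of 0.39. The ratio changed in 37 of the 74 pairs, or 50%, by Fisher's exact test with adjustment over all pairs. It was lower in replicate 2 in 31.1% of pairs and higher in 18.9%. Larger changes were found between Mir497 and Mir195a (-1.28), between Mir222 and Mir221 (1.01) and between the erythroid genes Mir144 and Mir451a (0.98). In all, 19 pairs changed by more than the smooth muscle cluster. Among the 14 deepest pairs it stood at place 6, and among the 44 pairs without shared runs of 18 nt at place 13.

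**Figure D4:**
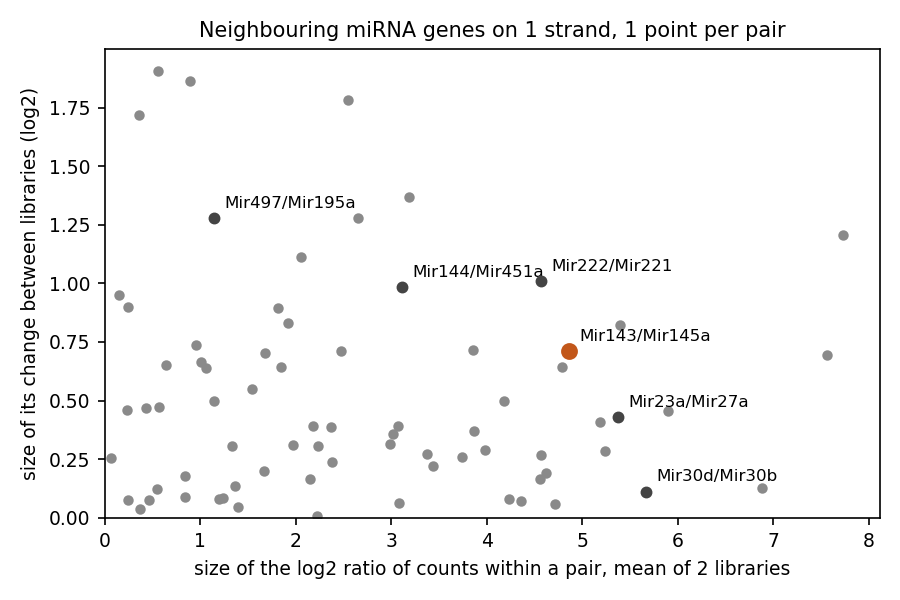
Size of the log2 ratio within 74 pairs of neighbouring miRNA genes (mean of both libraries) against the size of its change between replicate 2 and replicate 1, 1 point per pair. Mir143 and Mir145a lie at 4.86 and 0.71.

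The genes most like each member were found by the distance of log2(CPM + 1) over the 2 libraries. For Mir143 they were Mirlet7d (distance 0.30), Mir23a (0.34), Mir99a (0.44) and Mirlet7b (0.47). For Mir145a they were Mir150 (0.23), Mir214 (0.30), Mir185 (0.37) and Mir195a (0.40). Mir150, a lymphocyte miRNA, had 1955 CPM in replicate 2 against 971 CPM in replicate 1. Mir214, known from fibroblasts, had 1765 CPM in replicate 2 against 926 CPM in replicate 1. With 2 libraries, the distance reflects a like level and a like split between the hearts and no more.

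Other miRNAs with a known part in smooth muscle were read from 2 lists. Mature sequences are shown for miR-21a-5p, from the most abundant gene of the growth list, and for those of that list whose copies or shared seeds bear on how their counts can be read, from RefSeq on GRCm38.p6, 5′ to 3′, with the seed (bases 2 to 8) in capitals.
miR-21a-5p (Mir21a): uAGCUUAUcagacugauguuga
miR-221-3p (Mir221): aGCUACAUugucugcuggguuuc
miR-222-3p (Mir222): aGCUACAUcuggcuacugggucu
miR-24-3p (Mir24-1 and Mir24-2): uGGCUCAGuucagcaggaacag
miR-26a-5p (Mir26a-1 and Mir26a-2): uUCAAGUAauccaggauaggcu
miR-221-3p and miR-222-3p carry 1 seed and differ after it, so their reads can be told apart. miR-24-3p and miR-26a-5p are each encoded by 2 loci with 1 identical sequence, so reads of the whole product match both loci and the counts of Mir24-1, Mir24-2, Mir26a-1 and Mir26a-2 can understate it.

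The first list holds miRNA genes linked to SRF or to smooth muscle differentiation: Mir1a-1, Mir1a-2, Mir133a-1, Mir133a-2, Mir133b and Mir10a. Mir10a, known to favour the differentiation of smooth muscle from mouse embryonic stem cells, was the only abundant member, with 1525 CPM in replicate 2 against 1640 CPM in replicate 1. It was close to Mir145a in mean level, at 1583 ± 81.1 CPM (SD, n = 2). Mir143 had 27.8 counts per count of Mir10a in replicate 2 and 25.6 in replicate 1. Mir1a-2 had 66 counts in replicate 2 and 121 in replicate 1, and the other 4 members had at most 10 counts in a library. The miR-1 and miR-133 genes have several near-identical copies, so these counts say little of their mature products, which are known as abundant in heart muscle. Of 5 tested members, 1 was higher in replicate 2 (Mir133b) and 2 were lower (Mir10a and Mir1a-2) by the binomial test, beside 44.3% called among all genes. With DESeq2 size factors Mir133b was not called. The list's median log2 ratio was -0.27, and that of all tested genes -0.01.

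The second list holds miRNA genes known to promote growth of smooth muscle cells or to act in their response to injury: Mir21a, Mir221, Mir222, Mir24-1, Mir24-2, Mir26a-1, Mir26a-2, Mir146 and Mir31. All 9 were detected, with a sum of 4475 CPM in replicate 2 against 5874 CPM in replicate 1. By counts in gene rows this was about an order of magnitude under the cluster. The counts of Mir24-1, Mir24-2, Mir26a-1 and Mir26a-2 can understate their products, so the gap to the cluster can be overstated. Mir21a, which is known to rise in injured rat arteries, had 1899 CPM in replicate 2 against 1635 CPM in replicate 1. Mir143 had 22.3 counts per count of Mir21a in replicate 2 (95% exact interval 21.5 to 23.1) and 25.7 in replicate 1 (24.8 to 26.6).

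Mir145a and Mir221 went opposite ways between the hearts. Mir221, which represses the cell cycle inhibitor p27 in rat vascular smooth muscle, had 1015 CPM in replicate 2 against 1983 CPM in replicate 1, a log2 ratio of -1.13 (binomial test, adjusted p = 5.13e-183). Mir145a had 1.84 counts per count of Mir221 in replicate 2 (95% exact interval 1.73 to 1.95) and 0.570 in replicate 1 (0.541 to 0.599), so that the order of the 2 genes was reversed between the hearts. Mir222, the neighbour of Mir221, had 60.6 CPM in replicate 2 against 58.8 CPM in replicate 1 (log2 ratio -0.13, adjusted p = 0.703).

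Of the 9 growth genes, 3 were higher in replicate 2 (Mir24-2, Mir26a-1 and Mir26a-2) and 3 lower (Mir221, Mir146 and Mir31), and 3 did not pass, beside 20.1% higher and 24.2% lower among all tested genes. With library size alone 5 were higher and 3 lower, beside 28.7% higher and 18.7% lower among all tested genes. Mir31, which acts on growth of vascular smooth muscle in rat, showed the widest gap, with 99 counts in replicate 2 and 1287 in replicate 1. The list's median log2 ratio was 0.05 beside -0.01 over all tested genes. The 3 genes called higher on TMM scaling are all loci of miR-24-3p or miR-26a-5p. Reads that match both loci are left out of their counts, so their directions may not be those of the whole products, and this bears on the median.

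Markers of the other cells of the heart moved between the libraries as well, and their part in the values of the cluster was not tested. The cardiac muscle genes Mir208a, Mir208b and Mir499 summed to 8701 CPM in replicate 2 against 6143 CPM in replicate 1, with all 3 detected. The endothelial gene Mir126a had 65811 CPM in replicate 2 against 97017 CPM in replicate 1, while Mir126b had 1 count in each. The fibroblast genes (3 of 4 detected, Mir199a-1 at 0) summed to 1790 CPM in replicate 2 against 964 CPM in replicate 1. That sum is nearly all Mir214 (log2 ratio 0.76), while Mir199b went the other way, with 17.0 CPM in replicate 2 against 31.8 CPM in replicate 1 (log2 ratio -1.06, binomial test, adjusted p = 0.00189), and Mir199a-2 did not pass (adjusted p = 0.940). Mir199a-1, Mir199a-2 and Mir199b are genes of 1 family, and reads that match more than 1 of them fall outside the gene rows. Their counts, and their part in the fibroblast sum, can thus be understated. The erythroid genes (3 of 3) summed to 7589 CPM in replicate 2 against 45889 CPM in replicate 1.

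Immune genes (4 of 4 detected) summed to 5447 CPM in replicate 2 against 4121 CPM in replicate 1. Against that sum, Mir142, a general leukocyte miRNA, had 219 CPM in replicate 2 against 499.8 CPM in replicate 1 (log2 ratio -1.36, binomial test, adjusted p = 9.57e-62). Epithelial genes (7 of 7 detected) summed to 714 CPM in replicate 2 against 351 CPM in replicate 1. The liver gene Mir122 had 31.7 CPM in replicate 2 against 57.8 CPM in replicate 1. Neuronal genes were near the floor, with 0 of 6 detected and 5 of 6 at 0 in both libraries. These genes are copies of miR-9 and miR-124, and reads that match several copies fall outside the gene rows. Their low counts thus do not show that neuronal miRNAs were absent. 

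Ratios of counts within a library set the cluster beside these cell types without any scaling. Mir143 had 8.36 counts per count of Mir208a, the miRNA of the alpha myosin heavy chain gene, in replicate 2 (95% exact interval 8.18 to 8.54) and 11.0 in replicate 1 (10.8 to 11.3). Against Mir126a, the ratio was 0.644 in replicate 2 and 0.433 in replicate 1. Mir143 was thus lower in replicate 2 relative to Mir208a and higher relative to Mir126a, with intervals of the 2 libraries that do not overlap. Mir145a was higher in replicate 2 relative to both, with 0.368 counts per count of Mir208a in replicate 2 and 0.296 in replicate 1, and 0.0283 per count of Mir126a in replicate 2 and 0.0116 in replicate 1. Relative to Mir214, whose list did not move in 1 direction, Mir145a had a ratio of 1.06 in replicate 2 (1.01 to 1.11) and 1.22 in replicate 1 (1.15 to 1.30). Mir214 was already among the nearest genes of Mir145a by its split between the hearts, so a small change follows from that choice. Mir499, of the cardiac list, was not compared in this way. Its log2 ratio between the hearts was 0.48 on TMM scaling, beside 0.55 for Mir145a and 0.76 for Mir214.

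The cluster shares its chromosome with Mir378a, which had the highest mean CPM of the gene rows and lies 250 kb away on the same strand. That order leaves out reads that map to several places. Mir143 had 0.255 counts per count of Mir378a in replicate 2 and 0.334 in replicate 1. Apart from Mir378a, detected miRNA genes were distant: the next on the one side was Gm49347, 26091 kb away with 13 counts in replicate 2 and 8 in replicate 1, and the only one on the other side was Mir122, 3600 kb away. Of 57 measured miRNA genes of the chromosome, 8 were detected and 39 had no count in either library.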

How the data were processed

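Raw counts of reads at miRNA genes were deposited for 2 libraries, on mm10 with the GENCODE M21 annotation, per the deposited notes. The sources used here name no aligner and no counting program. Each file holds 3 count columns (without regard to strand, sense, opposite) over 2202 gene rows and 4 rows that name no gene; what the columns hold was read from the values. Sense counts were used, per 1000000 counts over gene rows (CPM). Replicate 2 had 4990632 reads, of which 1766135 (35.4%) were assigned to genes and 39.8% mapped to several places. Replicate 1 had 5606848 reads, of which 2074961 (37.0%) were assigned and 42.0% mapped to several places. A single read is worth 0.566 CPM in replicate 2 against 0.482 CPM in replicate 1.

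Scaling used TMM (edgeR 4.0.16), with DESeq2 1.42.0 size factors as an alternative. Binomial and Fisher's exact tests (scipy 1.17.1) compare 2 libraries, not conditions. The per-gene log2 ratios add a prior count of 0.5. Hairpins came from GENCODE M21 and were folded with ViennaRNA 2.7.2. The scripts were tested on simulated data.

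Named genes were the 2 members, the 4 genes nearest to each, up to 2 detected genes on each side on the chromosome, all members of the 2 smooth muscle lists and the highest of each marker list; the text says which others were picked on their values, and it names neighbours in the order of levels and further list members as such. Members and lists were chosen with earlier results of these data known.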

Additional observations from a re-analysis of the deposited data

How the results depend on the processing

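Of 40 values under alternatives, 31 stayed on their side of the threshold or within the spread between libraries. Several of these could not move by construction, so that count does not measure robustness. With 2 libraries, each value lies within the SD of their mean. Another minimum of counts leaves the log2 ratio of a member as it is. Both members had the same counts with and without regard to strand, so their ratio stayed the same. With library size alone the log2 ratio of Mir143 changed sign to 0.013 and no longer passed (binomial test, adjusted p = 0.138). The scalings differ by a constant shift of every log2 ratio, and which of them is right was not tested. The mean of Mir143 was 15266 CPM over all reads of the table, 58428 CPM with counts without regard to strand and 43349 CPM without the erythroid genes in the denominator; that of Mir145a was 539 and 2066 CPM under the first and second of these. These shifts follow from the denominators. Leaving out a library, Mir143 ranged from 41989 to 42366 CPM, Mir145a from 1129 to 1866 CPM, and their log2 ratio from 4.51 to 5.22. Neighbouring pairs numbered 34 at a mean of 100 CPM, where the cluster stood at place 6 by the ratio and 9 by its change. Alternatives chosen after seeing the data left 44 pairs without shared runs of 18 nt and 14 pairs with 1000 or more counts. No paired analysis was possible because the series has 1 group. With 2 hearts, no statement reaches beyond these libraries.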
